A study of Mus musculus with 8 samples.

Results

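The CXC and CX3C chemokine genes examined here were Cxcl1, Cxcl2, Cxcl3, Cxcl5, Cxcl9, Cxcl10, Cxcl12, Cxcl16 and Cx3cl1, 9 of 21521 protein-coding mouse genes with a chromosome position. They were taken by name, with earlier results of these data known. Binding of the NF-kB subunit RelA (p65) was read from a list of 9829 peaks, of which 18 were counted for these genes. The peaks came from chromatin immunoprecipitation and sequencing (ChIP-seq) of primary fibroblasts from wild-type C57BL/6 embryos. All cultures were kept overnight in low serum, and RelA libraries were made in duplicate before TNF (0 h) and at 0.5 h and 3 h of TNF (10 ng/ml), a cytokine that signals to NF-kB, beside 2 libraries of input DNA. Which cultures the duplicates came from is not given. A peak is given by its limits on the mm10 genome, and height, time and library are not recorded, so a peak shows where RelA was found in the series as a whole. Binding before and after TNF could therefore not be compared, depth is unknown, and the replicate error of a peak cannot be stated. Peak positions do not measure expression, so the fibroblast label could not be checked against marker genes. All counts below describe this single list and carry no test.

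Chemokines are small secreted proteins that draw leukocytes along a gradient through receptors coupled to G proteins. CXC ligands that carry a glutamate-leucine-arginine motif before the first cysteines, such as Cxcl1, Cxcl2, Cxcl3 and Cxcl5, attract neutrophils through Cxcr2. Cxcl9 and Cxcl10 are induced by interferons and attract T cells and natural killer cells through Cxcr3, Cxcl12 is a homeostatic ligand of Cxcr4, and Cxcl16 and Cx3cl1 are made as membrane-bound proteins with a mucin-like stalk. Fibroblasts exposed to TNF are a known source of several of these ligands, and NF-kB is a known activator of many of their promoters.

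RelA peaks were counted for 8 of the 9 genes when a peak centre had to lie inside the gene or within 50 kb of either end, against 43.2% of all protein-coding genes. Inside the gene or within 10 kb the count was 7 of 9, against 23.1%, and inside or within 1 kb it was again 7 of 9, against 17.0%. The genes fell into 3 kinds by distance. For Cxcl5, Cxcl10, Cxcl16, Cxcl1, Cxcl2 and Cxcl9, in that order, a peak was centred 2, 147.5, 162, 235.5, 381.5 and 570 bp from a gene end. Cx3cl1 had its nearest peak 3151 bp from an end and inside the gene. Cxcl3 and Cxcl12 lay farther from a peak than the other 7, at 26.8 and 56.0 kb. The median of the 9 distances was 0.382 kb, against 70.8 kb for all protein-coding genes, so these 2 genes were also closer to a peak than the median gene. A distance that is not whole comes from a peak centre between 2 bases.

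**Figure D1:**
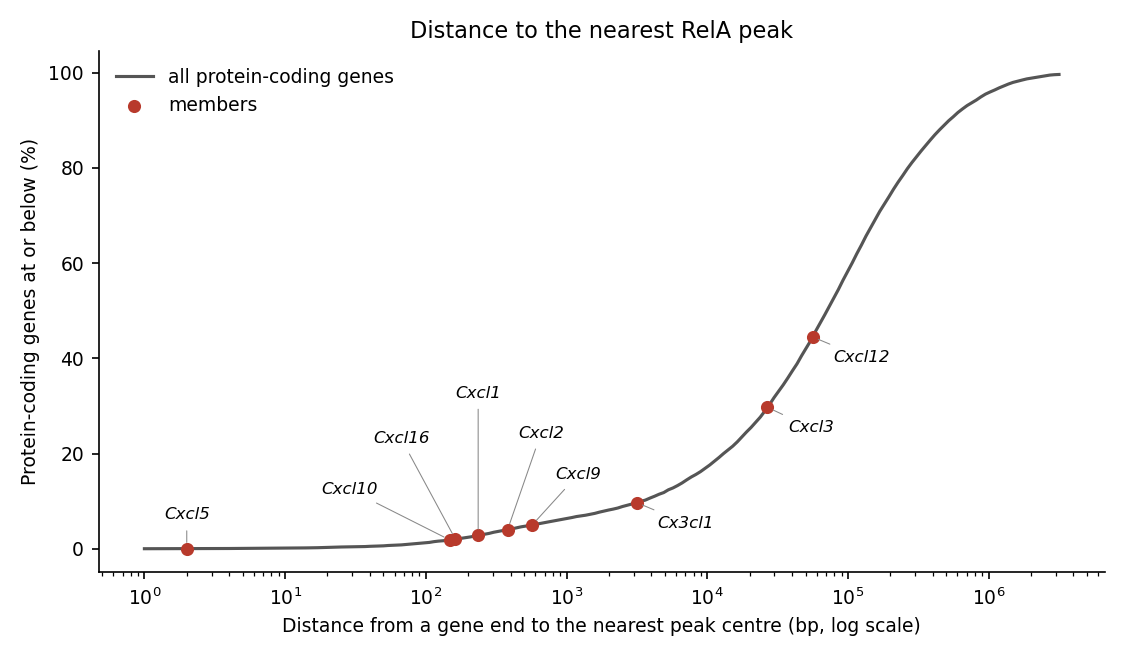
Distance from either end of a gene to the nearest RelA peak centre (x axis, bp, log scale) against the percentage of all protein-coding genes at or below that distance (y axis); the line is all 21521 genes and the points are the 9 chemokine genes. Cxcl5 sits at 2 bp and 5 others between 147.5 and 570 bp, whereas Cxcl3 and Cxcl12 sit at 26.8 and 56.0 kb.

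The ligands of neutrophils were considered first. Cxcl1 (chromosome 5, 90891245 to 90893121, plus strand) encodes a ligand of Cxcr2 also known as KC, and the 1120 bp peak at 90890450 to 90891569 covered its start site. That peak reached from 795 bp upstream to 324 bp downstream of the start, with its centre 235.5 bp upstream. Cxcl2 (90903899 to 90905938, plus strand), which encodes macrophage inflammatory protein 2, had a 1032 bp peak at 90903002 to 90904033, from 897 bp upstream to 134 bp downstream of its start. Both start sites thus lay inside a peak whose larger part was upstream. Cxcl5 (90759298 to 90761625), which encodes the ligand LIX, had the closest peak of all 9 genes, 529 bp wide at 90759032 to 90759560 and centred 2 bp outside the lower end of the gene. No strand was used for Cxcl5, so that end was not assigned as start or finish. Of all protein-coding genes, 0.0279% had a peak at least as close.

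Cxcl3 (90786101 to 90788093, plus strand) stood apart from its relatives. No peak lay within 10 kb of it, and the 3 peaks counted within 50 kb were centred 26.8, 31.9 and 44.6 kb from its ends. The first of these was the peak at the end of Cxcl5, and the gene nearest to the other 2 was Cxcl15. Among all protein-coding genes 29.7% had a peak as close as Cxcl3 did.

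The promoter windows of these genes are printed because all 3 hold the same kappaB letters, while a peak covers the windows of Cxcl1 and Cxcl2 but not that of Cxcl3. Each window holds 250 bases before and 50 after the start site, 5′ to 3′ on the strand of the gene, from RefSeq on GRCm38.p6. Capitals mark matches to the kappaB consensus of NF-kB (GGG, a purine, any 2 bases, 2 pyrimidines and CC, searched on both strands, overlapping matches joined). The windows are chr5:90890995-90891294 for Cxcl1, chr5:90903649-90903948 for Cxcl2 and chr5:90785851-90786150 for Cxcl3, all on the plus strand.

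Cxcl1: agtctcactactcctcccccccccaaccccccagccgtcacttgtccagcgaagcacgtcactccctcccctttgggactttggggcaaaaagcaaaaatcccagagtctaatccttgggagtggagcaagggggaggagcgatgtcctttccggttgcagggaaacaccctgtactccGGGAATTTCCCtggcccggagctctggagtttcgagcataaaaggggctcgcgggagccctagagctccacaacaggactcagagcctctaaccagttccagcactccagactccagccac
Cxcl2: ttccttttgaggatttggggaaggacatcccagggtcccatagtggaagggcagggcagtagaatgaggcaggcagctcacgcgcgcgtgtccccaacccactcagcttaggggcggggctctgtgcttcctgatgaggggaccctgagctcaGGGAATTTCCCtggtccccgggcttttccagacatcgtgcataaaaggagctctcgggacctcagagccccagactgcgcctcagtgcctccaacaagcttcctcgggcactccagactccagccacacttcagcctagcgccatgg
Cxcl3: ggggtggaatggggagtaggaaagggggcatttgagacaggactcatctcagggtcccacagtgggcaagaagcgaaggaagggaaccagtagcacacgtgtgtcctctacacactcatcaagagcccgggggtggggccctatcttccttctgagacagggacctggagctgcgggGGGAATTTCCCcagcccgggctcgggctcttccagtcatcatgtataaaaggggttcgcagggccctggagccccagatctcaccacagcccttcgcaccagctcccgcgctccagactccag

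All 3 windows held the same 11 letters, GGGAATTTCCC, starting 71 bases before the start site of Cxcl1, 97 before that of Cxcl2 and 73 before that of Cxcl3. The letters match the consensus on both strands, shifted by 1 base. The kappaB content of the windows was not the same under a different form, GGGNNTTTCC with N any base. In that form Cxcl1 had a further match 89 to 80 bases before its start and Cxcl2 had one 78 to 69 bases before. Cxcl3 had none beyond the shared letters. The windows of Cxcl1 and Cxcl2 lay wholly inside a peak and that of Cxcl3 overlapped none. The peak centre was 169 to 170 bp from the middle of the consensus matches at Cxcl1 and 289 to 290 bp at Cxcl2. The whole windows were 52.0% identical between Cxcl1 and Cxcl2, 50.2% between Cxcl1 and Cxcl3 and 57.0% between Cxcl2 and Cxcl3 in global alignments, against 38.2 to 47.3% for the other 18 pairs of chemokine windows. The promoter of Cxcl3, the gene without a close peak, was thus most like that of Cxcl2. Among 32619 promoter windows of all genes, 14 held these 11 letters on either strand, and 5 of the 14 (35.7%) overlapped a peak, including those of Cxcl1 and Cxcl2. The 14 included the 3 windows from which the letters were taken. Of all windows 4.15% overlapped a peak, and of those with a kappaB match 14.1% did. Cxcl3 also had the TATA letters TATAAA, 30 to 25 bases before its start, which were absent from the windows of Cxcl1 and Cxcl2. The printed windows of Cxcl1 and Cxcl2 hold CATAAA, which differs from these letters by 1 base. No match says only that these letters are not in the window.

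**Figure D2:**
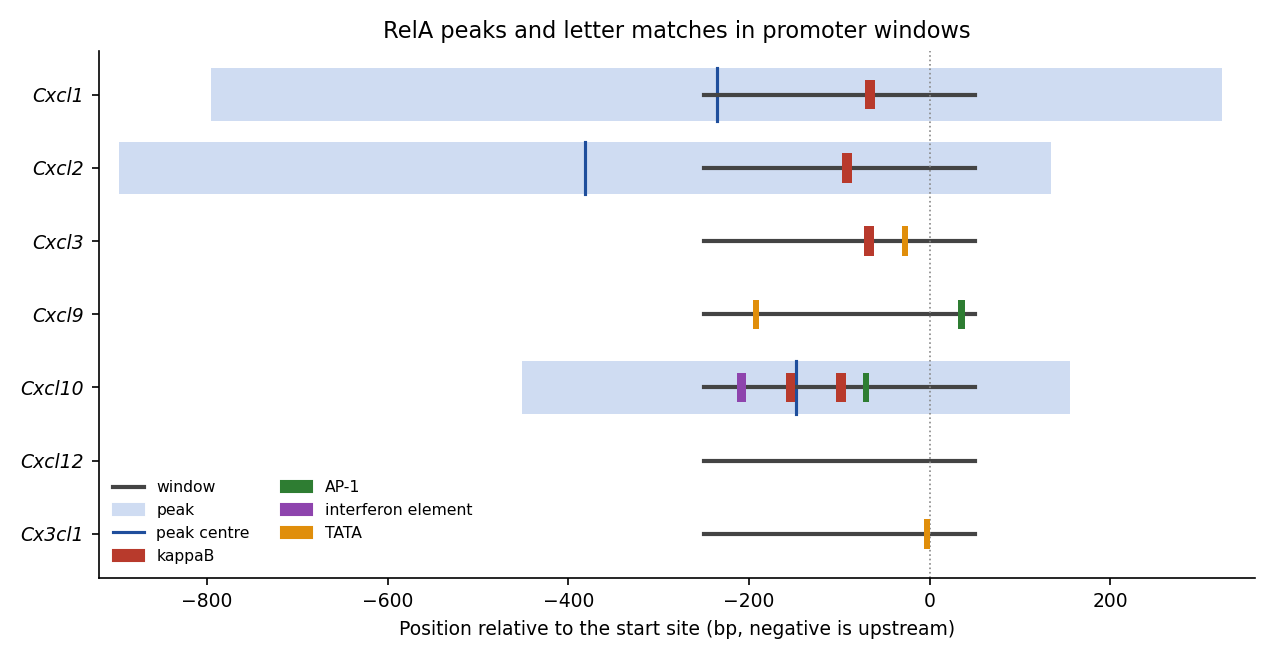
Promoter windows of the 7 genes with one in the table (y axis), by position relative to the start site (x axis, bp, negative is upstream); the dark line is the window, the pale bar a RelA peak that overlaps it, the blue line the peak centre and the coloured marks matches to kappaB, AP-1, interferon element and TATA letters. Peaks overlap the windows of Cxcl1, Cxcl2 and Cxcl10, while Cxcl3 has a kappaB match and no peak.

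The interferon-linked ligands of Cxcr3 had the most peaks of the 9 genes within 50 kb. The order depended on the window. Within 10 kb Cxcl16 had 3 peaks against 2 for each of them, and within 100 kb Cxcl9 had 7 while Cxcl10 had 6, as did Cxcl1, Cxcl2 and Cxcl3. Cxcl10 (chromosome 5, 92346638 to 92348889, minus strand) had 6 peaks within 50 kb, and Cxcl9 (92321331 to 92328079, minus strand) had the same 6. Of all protein-coding genes, 0.595% had 6 or more, and of those no longer than Cxcl12, the longest of the 9, 0.122% did. Such counts were also found among CC chemokine genes, with 7 at Ccl2, 7 at Ccl7 and 6 at Ccl11. The other CC genes listed had 5 or fewer. Of this pair, only Cxcl10 had its start site covered by a peak. This 608 bp peak at 92348733 to 92349340 reached from 451 bp upstream to 156 bp downstream of the start. The peaks next to it were centred 4.88 and 14.5 kb upstream of the start of Cxcl10. The second of these, 543 bp wide at 92363095 to 92363637, overlapped the upper end of Cxcl11, with its centre 70 bp outside. RefSeq annotates Cxcl11 in this assembly as a transcribed pseudogene.

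At Cxcl9 the nearest peak was at the other end of the gene. Its 883 bp peak at 92321460 to 92322342 was centred inside the gene, 6.18 kb downstream of the start and 570 bp from the lower end, where transcription of this minus-strand gene finishes. The closest peak on the upstream side, 736 bp wide at 92332214 to 92332949, was centred 4.5 kb from the start of Cxcl9 and 782.5 bp inside the lower end of Art3. Art3 encodes an ADP-ribosyltransferase family protein and spans Cxcl10, so 5 of the 6 peaks were centred inside Art3 as well. The next paragraph shows the windows of Cxcl10 and Cxcl9, one inside a peak and the other outside any.

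The windows are chr5:92348840-92349139 for Cxcl10 and chr5:92328030-92328329 for Cxcl9, printed on the minus strand from 5′ to 3′ with kappaB matches in capitals.

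Cxcl10: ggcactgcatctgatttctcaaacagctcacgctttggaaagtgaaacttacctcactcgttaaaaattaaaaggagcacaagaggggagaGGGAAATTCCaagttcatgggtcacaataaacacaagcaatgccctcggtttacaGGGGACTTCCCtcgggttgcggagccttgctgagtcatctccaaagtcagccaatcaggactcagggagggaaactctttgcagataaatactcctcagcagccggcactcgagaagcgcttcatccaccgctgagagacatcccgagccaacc
Cxcl9: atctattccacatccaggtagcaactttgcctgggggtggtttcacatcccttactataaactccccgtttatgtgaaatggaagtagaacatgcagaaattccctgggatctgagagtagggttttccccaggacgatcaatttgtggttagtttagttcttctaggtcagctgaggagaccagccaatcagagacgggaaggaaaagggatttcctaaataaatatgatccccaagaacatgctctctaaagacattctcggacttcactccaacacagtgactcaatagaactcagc

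Cxcl10 had kappaB letters at 2 places, GGGAAATTCC from 159 to 150 bases before the start and GGGGACTTCCC from 104 to 94 bases before it. The centre of the peak was 7 bp from the middle of the first and 48 to 49 bp from the middles of the overlapping matches at the second. Both places were nearer to the centre than the matches at Cxcl1 and Cxcl2 were. The same window held the interferon response letters GAAANNGAAA, as GAAAGTGAAA, 213 to 204 bases before the start, and the AP-1 letters TGANTCA, as TGAGTCA, 74 to 68 bases before it. It was the only one of the 7 windows with the interferon letters. Cxcl9 had no full kappaB match in its window. It held 3 places with 1 mismatch to the consensus, the AP-1 letters TGACTCA 32 to 38 bases into the transcript and TATAAA 195 to 190 bases before the start.

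Peaks could be shared only on chromosome 5, since Cxcl12, Cxcl16 and Cx3cl1 each lie on a chromosome with no other of these genes. The 6 chromosome 5 genes form a first cluster from Cxcl5 to Cxcl2 and a second of Cxcl9 and Cxcl10, with 1.42 Mb between them. The first cluster had 7 peaks over 172 kb between the outermost centres, of which 5 were counted for a pair of genes. Cxcl1 and Cxcl2, 10.8 kb apart, shared all 4 of their peaks, namely the peak at each start, a 1054 bp peak 14.8 kb upstream of Cxcl1 at 90875910 to 90876963, and an 824 bp peak at 90930501 to 90931324. The last of these was centred 39.5 bp inside the end of Mthfd2l, a gene of mitochondrial folate metabolism, and 27.0 kb downstream of the start of Cxcl2. Cxcl3 and Cxcl5, 24.5 kb apart, shared the peak at Cxcl5.

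The second cluster had 6 peaks over 55.3 kb, and all 6 were counted for both Cxcl9 and Cxcl10, which lie 18.6 kb apart. Successive centres in this cluster were 10.7, 16.5, 4.74, 9.59 and 13.8 kb apart. No peak could be shared between the 2 clusters, which lie 1.42 Mb apart, with a window of 50 kb. In all, 11 of the 18 peaks were counted for a pair of these genes and 7 for a single gene. A window of 10 kb left 12 peaks and no shared one, so the sharing is between genes that lie within 50 kb of the same peak and does not mark a peak as acting on either.

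**Figure D3:**
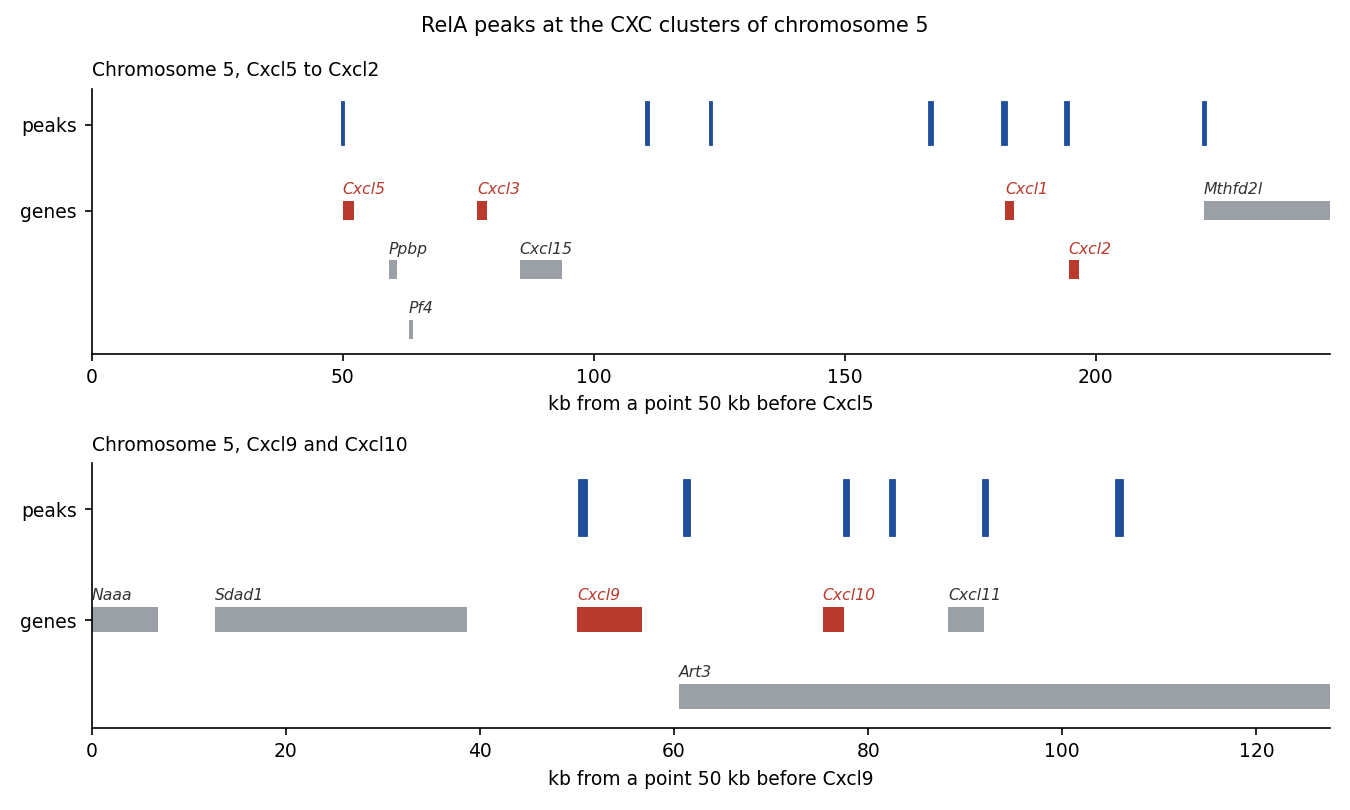
RelA peaks (blue bars, drawn to scale in width) above genes (red for the chemokine genes examined, grey for neighbours and the pseudogene Cxcl11) in the 2 chromosome 5 clusters, by distance in kb (x axis, a different scale in each panel) from a point 50 kb before the first gene. The 7 peaks of the first cluster leave the stretch at Cxcl3 empty, and the 6 peaks of the second run from Cxcl9 past Cxcl11.

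The ligands with a membrane stalk each had peaks at the gene itself. Cxcl16 (chromosome 11, 70454389 to 70459984), which encodes the ligand of Cxcr6, had 3 peaks, all within 10 kb. The nearest, 623 bp wide at 70459511 to 70460133, was centred 162 bp inside the upper end of the gene, where Cxcl16 overlaps Zmynd15 (start 70459433). A 1009 bp peak at 70451753 to 70452761 was centred 2.13 kb below the lower end of Cxcl16 but 339 bp inside Med11, a Mediator subunit gene. The third, 628 bp wide at 70467614 to 70468241, lay 7.94 kb above Cxcl16 and 1.72 kb from Zmynd15. Each of these peaks was within 50 kb of 5 or 6 protein-coding genes, and 1 of the 3 had Cxcl16 as the nearest.

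Cx3cl1 (chromosome 8, 94772180 to 94782427, plus strand) encodes fractalkine, the ligand of Cx3cr1. Both of its peaks lay downstream of the start. The 855 bp peak at 94778849 to 94779703 was centred inside the gene, 7.1 kb from the start, and the 787 bp peak at 94785227 to 94786013 lay 3.19 kb beyond its far end. Cx3cl1 was the nearest protein-coding gene to both, although the CC chemokine genes Ccl22 and Ccl17 also had both within 50 kb. The noncoding RNA gene Gm51543 had an end closer to each centre than Cx3cl1 did, at 1825 and 352 bp. The promoter window of Cx3cl1 overlapped no peak and held no full kappaB match.

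Cxcl12 (chromosome 6, 117168535 to 117181368, plus strand), the homeostatic ligand of Cxcr4, was the 1 gene with no peak within 50 kb. The nearest, 577 bp wide at 117237111 to 117237687, was centred 56.0 kb beyond the downstream end, just outside the window. Peaks of 830 and 819 bp followed at 63.2 and 85.9 kb, all on the downstream side, and Cxcl12 was the nearest protein-coding gene to all 3. Of all protein-coding genes, 44.5% had a peak as close, and the median over all genes was 70.8 kb. Its promoter window held none of the kappaB, AP-1, interferon or TATA letters.

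**Figure D4:**
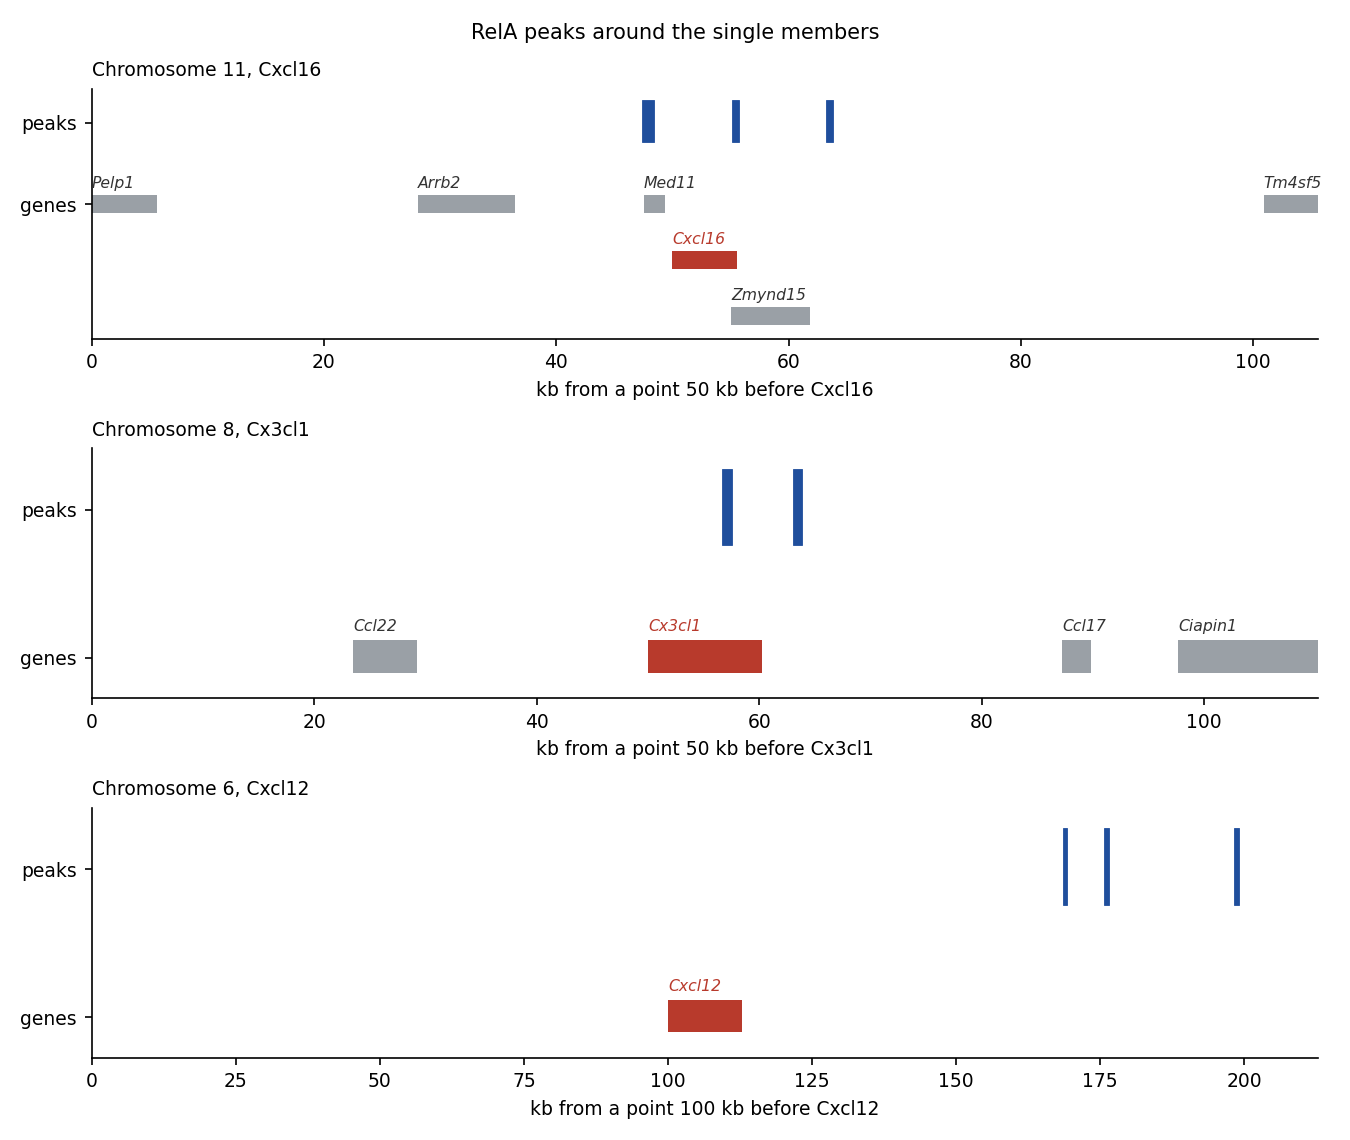
RelA peaks (blue bars, width to scale) above genes (red for the chemokine gene examined, grey for other protein-coding genes) around Cxcl16, Cx3cl1 and Cxcl12, by distance in kb (x axis, a different scale in each panel) from a point 50 kb, 50 kb and 100 kb before the gene. One peak lies at the upper end of Cxcl16 and another 2.13 kb below its lower end, both peaks of Cx3cl1 lie downstream of its start, and the 3 peaks of Cxcl12 begin 56.0 kb beyond it.

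Width was the only other property the list gave. The 18 peaks were 529 to 1120 bp wide with a median of 783.5 bp and quartiles of 622.25 and 876 bp, against a median of 687 bp and quartiles of 587 and 816 bp for all 9829 peaks. The widest lay at Cxcl1, where 95.5% of all peaks were narrower. The peak upstream of Cxcl1 (1054 bp) and those at Cxcl2 (1032 bp) and Med11 (1009 bp) were the others above 1000 bp, a width passed by 4 of the 18 peaks and by 8.62% of all. At the other extreme, the peak at Cxcl5 (529 bp) was the narrowest of the 18, and 12.8% of all peaks were narrower. The 6 peaks of Cxcl9 and Cxcl10 were 543 to 883 bp wide, with a median of 679 bp, close to that of all peaks. Width depends on how peaks were called as well as on binding, and the calling settings are not given.

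**Figure D5:**
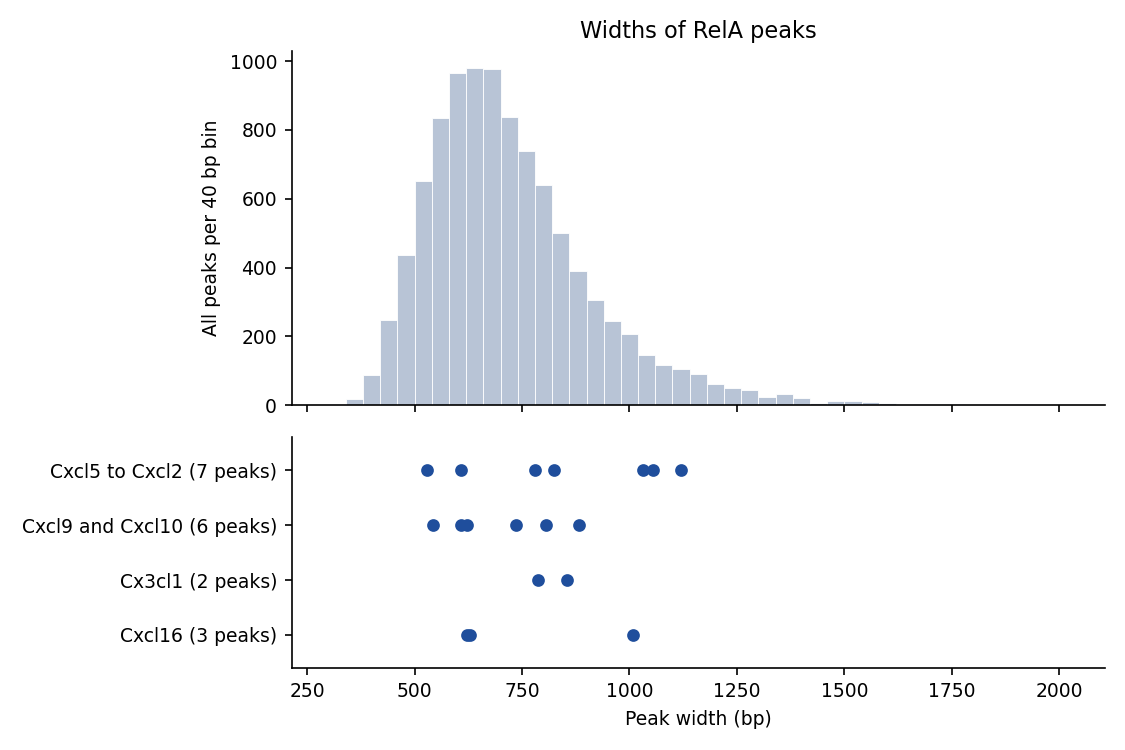
Upper panel, number of peaks of the whole list per 40 bp of width (y axis) by peak width in bp (x axis); lower panel, each of the 18 peaks near the chemokine genes as a point on the same width axis, by locus. The points range from 529 to 1120 bp, with the 3 widest in the first chromosome 5 cluster, at the starts of Cxcl1 and Cxcl2 and 14.8 kb upstream of Cxcl1.

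Across the 7 genes with a promoter window, 3 windows (Cxcl1, Cxcl2 and Cxcl10) overlapped a peak, against 4.15% of all windows, and each of the 3 was wholly inside it. A kappaB match was present in 4 windows, those 3 and Cxcl3, against 8.51% of all windows. For comparison, the interferon letters were present in 1 of 7 against 3.46%, the AP-1 letters in 2 of 7 against 7.85%, and the TATA letters in 3 of 7 against 13.7%. Some genes have several windows in the full set. A match of letters is not a measured site, and with chromatin cross-linked by disuccinimidyl glutarate and formaldehyde a peak can also arise through a protein that RelA touches.

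The rest of the chemokine system was described with gene lists. Of 6 other protein-coding CXC ligand genes, 5 had a peak within 50 kb, against 43.2% of all genes, and 1 within 10 kb, against 23.1%. Those with a peak were Ppbp (9.22 kb) and Pf4 (13.1 kb), which encode platelet chemokines, Cxcl15 (16.9 kb), Cxcl13 (21.7 kb), a B cell attractant, and Cxcl17 (13.5 kb), while Cxcl14 had none (80.6 kb). Ppbp, Pf4 and Cxcl15 lie inside the first cluster and drew on its peaks. Of the 9 receptor genes, 3 (33.3%) had a peak within 50 kb, near the 43.2% of all genes, namely Ackr3, a scavenger receptor of Cxcl12 (1.55 kb), Cxcr5 (12.6 kb, 3 peaks) and Cxcr6 (46.1 kb). The receptor genes Cxcr2, Cxcr3, Cxcr4 and Cx3cr1, whose ligands are described above, had none within 50 kb. Of 5 genes for proteases that cut or shed these ligands, 4 had a peak within 50 kb, again beside 43.2% of all genes: Adam17 (3.25 kb, 3 peaks) and Adam10 (21.4 kb), the sheddases of Cx3cl1 and Cxcl16, Mmp9 (7.49 kb) and Mmp2 (28.2 kb). Dpp4 had none.

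CC ligand genes, the sister family, were set beside the CXC and CX3C genes as counts. Each count takes a peak centre inside the gene or within the distance named. Within 50 kb, 14 of 18 CC genes had a peak and 8 of the 9 CXC and CX3C genes, beside 43.2% of all protein-coding genes. Within 10 kb the counts were 8 of 18 and 7 of 9, beside 23.1%. Inside the gene or within 1 kb they were 4 of 18 (22.2%) and 7 of 9, beside 17.0%, so this CC count was near the share of all genes. The 7 include Cx3cl1, whose nearest peak lay inside the gene but 3151 bp from an end. The CC genes closest to a peak were Ccl20 (0.032 kb), Ccl5 (0.145 kb), Ccl8 (0.468 kb), Ccl9 (2.42 kb) and Ccl2 (2.43 kb). Ccl28 (3.8 kb), Ccl1 (4.72 kb) and Ccl6 (6.83 kb) were the others within 10 kb. Ccl25 (11.4 kb), Ccl7 (12.6 kb), Ccl12 (12.9 kb), Ccl11 (15.4 kb), Ccl17 (23.8 kb) and Ccl22 (27.9 kb) had one farther off. The median distance to the nearest peak was 12 kb for the CC genes and 0.382 kb for the CXC and CX3C genes, and the median number of peaks within 50 kb was 3 in both. The difference was not tested, and neighbours in both families share peaks, so genes are not independent.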

How the data were processed

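RelA ChIP-seq was deposited as 1 peak list for 8 libraries. The deposited values are positions in base pairs, the start and end of each peak, in 3 columns with a chromosome. The genome was mm10 and the tools were MACS2, Bowtie2 2.3, deepTools, Picard 1.13, cutadapt 1.9.1 and SAMtools, per the submitters' processing notes. For the role of each tool, the threshold, the use of input and any pooling of libraries, nothing is given in the sources used here. Depth is unknown, so no interval could be given.

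Starts were converted to count from 1. Gene positions came from the RefSeq table of GRCm38.p6, the assembly of mm10 (21521 protein-coding genes on chromosomes 1 to 19 and X). In addition, 345 genes placed on scaffolds were left out. Peaks on contigs (6) were used for widths only. Promoter windows from RefSeq matched 7 of the 9 genes, all except Cxcl5 and Cxcl16. Counting and motif search ran in Python 3.11.15 with pandas 2.3.3, and alignments in Biopython 1.88 (match 1, mismatch -1, gap opening -5, extension -1), after planted peaks and motifs had been tested on simulated data. The text names all 9 genes, list genes with a peak within 50 kb, genes nearest to a counted peak and genes between the chromosome 5 members; others (Cxcl14, Dpp4, receptors without a peak) were named after their values were seen. Members and lists were chosen with earlier results of these data known. The alternatives were windows of 1, 5, 10 and 100 kb, overlap, wider peaks, merging, nearest gene only, other kappaB forms and shorter background genes.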

Additional observations from a re-analysis of the deposited data

How the results depend on the processing

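The number of chemokine genes with a peak ranged from 7 to 9 of 9 over all alternatives run, but the share of all protein-coding genes moved with the window. That share was 17.0, 19.8, 23.1 and 58.7% at 1, 5, 10 and 100 kb, where 7, 7, 7 and 9 of the 9 had a peak, and 28.5% with wider peaks only, where 7 did. Cxcl12 gained peaks only at 100 kb or by nearest gene without a distance limit. Cxcl3 was lost at 1, 5 and 10 kb and by nearest gene, Cxcl10 by nearest gene because Art3 spans it, and Cxcl5 when peaks under the median width of 687 bp were dropped. The 18 distinct peaks became 7 at 1 kb, 11 at 5 kb and 11 with the wider peaks only. The 11 shared peaks became 0 at 1, 5 and 10 kb and 7 with the wider peaks. The median width of 783.5 bp became 855, 787, 761.5 and 736 bp at 1, 5, 10 and 100 kb. Any overlap and merging of peaks within 1 kb changed none of these counts. Of 63 counts for single genes, 26 moved by over 1.5 times. A kappaB match was found in 4 of the 7 windows with the consensus, against 8.51% of all windows. With GGGNNTTTCC it was found in 3, against 1.64% of all windows. The count was 3 with the window shortened to 100 bases before and 50 after the start, and 6 with 1 mismatch. For these last counts no share of all windows is given, so they cannot be set against a background. Among the 8996 protein-coding genes no longer than Cxcl12, 34.3% had a peak within 50 kb and 0.122% had 6 or more. No paired analysis was possible because the values carry no library, and for the same reason no replicate could be left out. Without depth, a missing peak at Cxcl3 or Cxcl12 does not show that RelA was absent.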

Other observations

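Between the chromosome 5 clusters lie 16 protein-coding genes, 12 of them with a peak within 50 kb, beside 43.2% of all genes, and 6 within 10 kb, beside 23.1%. Without the 13 chromosome 5 peaks already counted for the chemokine genes, these counts were 11 and 5. In the stretch itself 8 peaks were centred. Mthfd2l comes first after Cxcl2, with the peak at its end (0.0395 kb) that was also counted for Cxcl1 and Cxcl2. Then follow genes for ligands of the epidermal growth factor receptor family. Epgn (epigen) and Ereg (epiregulin) had the same nearest peak, at 2.72 and 36.7 kb, Areg (amphiregulin) had none within 50 kb (102 kb), and Btc (betacellulin) had a peak centred 0.114 kb from its end. Further along, Parm1 (5.58 kb) and Ppef2 (3.14 kb, 2 peaks) had peaks within 10 kb. Rchy1 (1.93 kb), Odaph (26.3 kb) and Cdkl2 (44.9 kb) had 1 nearest peak in common, and Ppef2 and Naaa (27.8 kb) another. Uso1 had a peak at 17.4 kb, and the nearest to Sdad1 (11.9 kb) was the peak inside Cxcl9. G3bp2, Gm46915 and Gm46933 had none.

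Over all 32619 promoter windows, those with a kappaB match overlapped a peak in 14.1% of cases (392 of 2776) and those without in 3.22%. Another kappaB form, GGGNNTTTCC, which is not a subset of the consensus, gave 19.8% against 3.89%. The TATA letters went the other way, with 1.98% against 4.49%, and the AP-1 and interferon letters gave 3.44% against 4.21% and 3.81% against 4.16%. Most windows with a kappaB match thus had no peak, as at Cxcl3, and 29.0% of the windows under a peak had a match. In the CC family, 1 of 13 promoter windows, that of Ccl20, overlapped a peak, and 3 held a kappaB match (Ccl1, Ccl9 and Ccl20). None of the windows of the other CXC ligands (5), the receptors (8) or the proteases (3) overlapped a peak or held a kappaB match. Of all windows, 4.15% overlapped a peak and 8.51% held a match. In lists this small, finding none is near those shares and sets these genes apart from no others. These shares describe windows that differ in base composition and in how many belong to one gene, which was not adjusted for.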
